A study of Mus musculus with 32 samples.

Results

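The genes described here are autosomal genes that did not pass a set ceiling above their starting level on the first day of a differentiation course of mouse embryonic stem cells and stood higher at 48 h. They were chosen from the RNA values of the course itself. With 0.5 RPKM (reads per kilobase of transcript, scaled to the mapped reads of the library) added to the mean of the 2 libraries of each time point, the 48 h mean had to be at least 3, at least 2.5 times the 24 h mean and at least 2.5 times the 0 h mean, while the means at 8, 16 and 24 h could not exceed 1.5 times the 0 h mean. Symbols starting with Slc, Zfp or Hist were left out, which removed 1 gene. This gave 114 of the 14471 autosomal genes in a table of 15012 genes. Because the choice used the differentiating course, the levels in that course are given as a description, with no test.

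The cells were TX1072, a female F1 hybrid embryonic stem cell line from a C57BL/6 (B6) and CAST/EiJ (Cast) cross, in which doxycycline at 1 µg/ml drives Xist from the B6 X chromosome through a transactivator at the Rosa26 locus. The differentiating mRNA-seq course was sampled at 0, 8, 16, 24 and 48 h of doxycycline with 2 libraries per time point. The undifferentiated course, in serum with LIF and 2 kinase inhibitors, was sampled by mRNA-seq at 0, 2, 4, 8, 12 and 24 h with 2 libraries each, and by PRO-seq, which sequences the RNA that engaged polymerases extend in isolated nuclei, at 0 and 24 h with 2 libraries each and at 0.5, 1, 2, 4, 8 and 12 h with 1 library each. The study asks which features of X-linked genes set how fast Xist silences them. Every differentiating library after 0 h had also received doxycycline and there was no undifferentiated library at 48 h, so that differentiation, doxycycline and Xist cannot be told apart at 48 h. How the cells were differentiated is not stated in the labels, and all groups come from 1 cell line. No label says that replicates were separate cultures, so p-values measure only the spread between these libraries, which may be technical.

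Mouse embryonic stem cells held with LIF and kinase inhibitors sit in the naive state of pluripotency, like the cells of the early epiblast. When the inhibitors are taken away they pass through a formative state, in which naive factors are lost and Fgf5, Otx2 and Dnmt3b are made, before they choose a germ layer. Antigen-processing genes, to which several of the genes below belong, cut proteins into peptides and load them on MHC class I molecules, and are known for their induction by interferon in differentiated cells.

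Formative markers were higher and naive markers lower at 48 h than at 0 h, and most of this change was there by 24 h. The 4 formative markers summed to 393 and 384 RPKM at 48 h, against 59.3 and 57.4 RPKM at 0 h. The 8 naive markers summed to 262 and 253 RPKM at 48 h, against 1334 and 1335 RPKM at 0 h. At 24 h the sums were already 300 and 302 RPKM for formative and 370 and 385 RPKM for naive markers. Pou5f1, the core pluripotency factor, still averaged 374 RPKM at 48 h. The 4 primitive streak markers summed to 6.69 and 6.55 RPKM at 48 h, against 18.5 and 18.7 RPKM at 0 h, and the 3 neuroectoderm markers listed to 2.13 and 2.04 RPKM at 48 h, against 11.5 and 11.5 RPKM at 0 h. The 4 trophectoderm markers summed to 1.58 and 1.42 RPKM at 48 h, against 8.50 and 8.14 RPKM at 0 h, with Cdx2 at a mean of 0.022 RPKM and Krt7 at 1.11 RPKM at 48 h. The 5 endoderm markers listed summed to 2.71 and 2.67 RPKM at 48 h, against 1.94 and 1.77 RPKM at 0 h, with Gata4 at a mean of 0.235 RPKM and Dab2 at 2.06 RPKM at 48 h. The 4 of 7 fibroblast markers that are listed summed to 30.9 and 28.6 RPKM at 48 h and to 38.2 and 39.9 RPKM at 24 h, against 8.00 and 7.76 RPKM at 0 h, and Thy1, which averaged 28.7 RPKM at 48 h, made up most of that. Its course was not that of the genes described here, being as high at 24 h as at 48 h. The reads behind the RPKM scaling, estimated from the steps between values, were 58964000 to 98357000 per differentiating library and 55353000 to 84039000 per undifferentiated library. In PRO-seq, 3041199 to 6443286 reads per library could be assigned to an allele. Among the undifferentiated mRNA-seq libraries, replicate 1 at 2 h stood apart, with a median over the autosomal genes outside the set of 3.53 RPKM against 4.75 to 5.25 RPKM in the other 11.

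Taken as a set, the 114 genes started low and were moderately expressed at the end. Their median level was 1.03 RPKM at 0 h, 0.871 RPKM at 8 h, 1.29 RPKM at 16 h, 1.252 RPKM at 24 h and 5.81 RPKM at 48 h. The median autosomal gene stayed between 3.97 and 4.69 RPKM over the same times. In all 114 genes the lower 48 h library exceeded each of the 8 earlier libraries, as it did in 35.8% of autosomal genes, and the rule nearly fixes this. The ratio of 48 h to 24 h, with 0.5 RPKM added to both, had a median of 3.27 and ran from 2.51 to 11.3, against a median of 1.05 over autosomal genes. The 48 h libraries differed from each other by a median of 0.0747 on the log2 scale, with replicate 1 above replicate 2 in 80 genes. The 8 h mean was below the 0 h mean in 86 genes, the 16 h mean in 26 and the 24 h mean in 34, against 54.6%, 46% and 48.2% of autosomal genes, and the ceiling on these times bears on all 3 counts. Where all 10 RPKM values came out as whole reads, within 0.02 of a read, as they did in 70 genes, the median was 1710 reads per library at 48 h and 284 reads at 24 h.

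**Figure D1:**
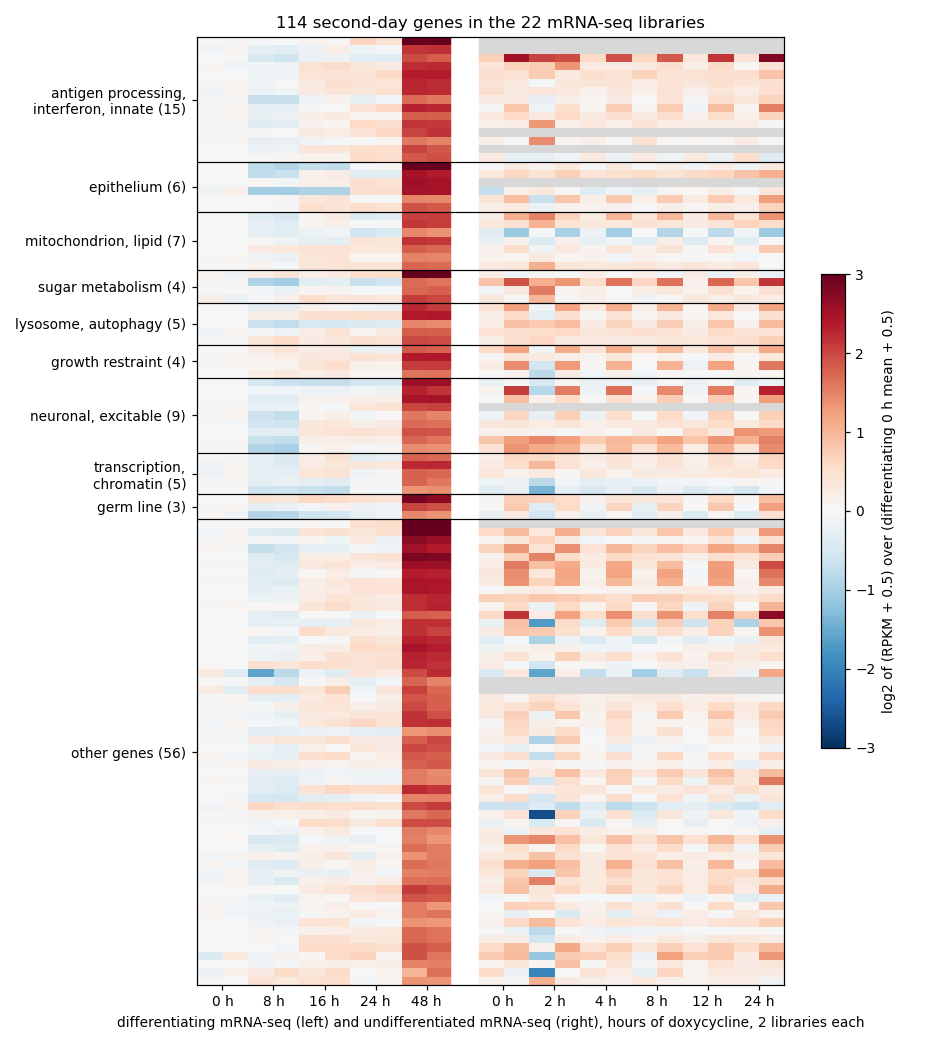
Each row is 1 of the 114 genes and each column 1 mRNA-seq library, differentiating on the left and undifferentiated on the right, coloured by the log2 of (RPKM + 0.5) over the differentiating 0 h mean + 0.5. Rows are grouped by known role, with the number of genes in brackets, and grey marks genes that the undifferentiated table does not list. Both 48 h columns are red in all rows, and in the undifferentiated course the right-hand library of each pair, from T7 to T12, is often the redder one.

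Genes lay close to each limit on both sides. Miip and Gm9805 entered at 2.505 and 2.507 times the 24 h level, while Sgsm1 and Gyltl1b stayed out at 2.488 and 2.485 times. Flot1 and Miip entered at 2.505 and 2.525 times the 0 h level, while Rdh11 and St14 stayed out at 2.496 and 2.455 times. For the 48 h minimum, with 0.5 RPKM added, Atp2a3 and Ifi27l2a lay inside at 3.13 and 3.16 RPKM and Mcoln3 and Cfc1 outside at 2.96 and 2.95 RPKM. For the ceiling on the first day, Dpep3 and Map3k9 lay inside at 1.494 and 1.490 times the 0 h level and Gm42434 and Sycp3 outside at 1.502 and 1.506 times.

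To show what the genes do, 58 of the 114 were sorted after their values were seen into 9 groups by known role, which carry no test. The largest group, with 15 genes, serves antigen processing, the interferon response and innate immunity. Psmb8 encodes the interferon-inducible catalytic subunit that converts the proteasome into the immunoproteasome. Its level was 0.0113 and 0.0224 RPKM at 0 h, 0 and 0 RPKM at 8 h, 0.0602 and 0.0297 RPKM at 16 h, 0.311 and 0.186 RPKM at 24 h and 3.95 and 3.96 RPKM at 48 h. It was close to absent until 16 h and both 48 h libraries lay far above the rest. Psme1 and Psme2 encode the subunits of PA28, the cap that opens the proteasome for peptide production. Psme2 had 52.8 and 51.9 RPKM at 48 h, against 8.70 to 17.7 RPKM in the 8 earlier libraries. Psme1 had 38.0 and 35.4 RPKM at 48 h, against 10.4 to 13.3 RPKM before. The pair was already expressed at the start, unlike Psmb8. Stat2, the transcription factor that carries the type I interferon signal into the nucleus, had 11.3 and 10.4 RPKM at 48 h, against 1.72 to 3.42 RPKM before. Parp9, an ADP-ribosyltransferase partner of the interferon response, had 15.8 and 16.7 RPKM, against 4.03 to 6.10 RPKM before. Ifi27l2a, an interferon-induced gene, was at 2.62 and 2.70 RPKM, against 0.0539 to 0.307 RPKM before.

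The non-classical MHC class I genes H2-Q2, H2-Q6 and H2-Q7 were at 2.61 to 4.93 RPKM at 48 h and at 0.0915 to 1.35 RPKM in the earlier libraries. They are near-identical copies, so how their reads were divided is uncertain. Unc93b1, which carries Toll-like receptors to endosomes, had 3.91 and 3.79 RPKM at 48 h, against 0.299 to 0.770 RPKM before. Cyba, the membrane subunit of NADPH oxidases, had 29.2 and 26.4 RPKM, against 4.57 to 7.26 RPKM before. The rest of the group were Cxcl16, a chemokine, Il23a, a cytokine subunit, Peli3, a ubiquitin ligase of Toll-like receptor signalling, and Prkra, an activator of the double-stranded RNA kinase PKR. Their 48 h values lay between 2.86 and 9.95 RPKM.

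A list of 29 interferon-response genes, written with earlier results of these data known, gives the surroundings. Of 23 in the differentiating table, 20 reached a mean of 0.5 RPKM over the course and were tested. That mean includes 48 h, so a low gene could enter through its rise at 48 h, as Psmb8 did. Of the 20, 16 were higher and 4 lower at 48 h than at 24 h, with a median log2 change of 1.06. These calls are by limma with Benjamini-Hochberg adjustment over all genes. Of the 11863 autosomal genes tested, 44.2% were higher and 34.8% lower, with a median of 0.06. Stat2 and Psmb8 are among the 16 by the rule that chose them. Gbp2, an interferon-induced GTPase, had 10.54 and 11.04 RPKM at 48 h, against 1.55 and 1.44 RPKM at 24 h (log2 change 2.50 ± 0.06 SE, adjusted p = 1.92e-11). Mx2, another such GTPase, had 2.52 and 2.29 RPKM at 48 h, against 0.435 and 0.324 RPKM at 24 h. Of the MHC class I pathway, Tap1, the peptide transporter, averaged 4.05 RPKM at 48 h and 1.06 RPKM at 24 h. B2m, the light chain of MHC class I, averaged 16.7 RPKM at 48 h and 5.14 RPKM at 24 h. Psmb9, a second immunoproteasome subunit, averaged 2.07 RPKM at 48 h and 0.329 RPKM at 24 h. Among the 4 lower ones were Ifitm3, an interferon-induced membrane protein, Ddx58, a sensor of viral RNA, and Oas1a, whose log2 changes lay between -0.28 and -0.19. The list had also changed on the first day, with 14 of the 20 higher and 5 lower at 24 h than at 0 h, against 36.5% of autosomal genes higher and 37.8% lower.

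The epithelial group holds 6 genes. Krt8, a keratin of simple epithelia, was at 2.54 and 3.26 RPKM at 0 h, 1.15 and 1.15 RPKM at 8 h, 1.28 and 1.29 RPKM at 16 h, 4.21 and 4.43 RPKM at 24 h and 18.7 and 18.4 RPKM at 48 h. It was lowest at 8 and 16 h, and its 48 h libraries were the highest. Tjp3, a scaffold of tight junctions, had 14.4 and 13.2 RPKM at 48 h, against 1.05 to 2.65 RPKM before. Marveld3, a tight-junction membrane protein, had 2.72 and 2.61 RPKM, against 0.0266 to 0.274 RPKM before. Pdzk1, a scaffold for transporters at the apical membrane, had the largest ratio of the set. It was at 13.0 and 12.7 RPKM at 48 h, against 0.140 to 0.730 RPKM before, an 11.3-fold difference from 24 h. Myo6, an actin motor, had 4.27 and 4.18 RPKM at 48 h, against 1.18 to 1.74 RPKM before. Krt8 was the only gene of the set on a list of 19 trophectoderm genes. Of 13 tested, 5 were higher and 7 lower at 48 h than at 24 h, with a median log2 change of -0.31, beside 44.2% and 34.8% of autosomal genes. Krt18, the keratin that pairs with Krt8, averaged 123 RPKM at 48 h and 19.5 RPKM at 24 h, while the lineage regulators Eomes, Tead4 and Gata3 were lower.

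Enzymes of the mitochondrion and of fat use form a group of 7. Cox6b2, a subunit of cytochrome c oxidase known mainly from testis, had the highest level of the set. It was at 20.4 and 20.4 RPKM at 0 h, 15.4 and 14.2 RPKM at 8 h, 21.7 and 24.2 RPKM at 16 h, 15.3 and 15.8 RPKM at 24 h and 85.5 and 87.0 RPKM at 48 h. Its first-day libraries stayed within a narrow band below both 48 h libraries. Acadl, which starts the oxidation of long-chain fatty acids, had 40.0 and 37.6 RPKM at 48 h, against 10.97 to 15.0 RPKM before. Cpt2, which readies fatty acids inside the mitochondrion, had 11.1 and 10.9 RPKM, against 3.11 to 5.07 RPKM before. Pnpla2, the lipase that opens lipid droplets, had 19.6 and 18.9 RPKM, against 5.31 to 7.48 RPKM before. Tspo, a protein of the outer mitochondrial membrane, Aldh1b1, a mitochondrial aldehyde dehydrogenase, and Lipg, a lipase of the endothelium, were at 3.26 to 14.0 RPKM at 48 h.

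Among 4 genes of sugar metabolism, Aldoc, an aldolase of glycolysis, had 9.64 and 8.92 RPKM at 48 h, against 1.02 to 2.69 RPKM before. Fbp1, an enzyme of glucose synthesis, had 5.54 and 5.05 RPKM, against 0.108 to 0.458 RPKM before. Dcxr, a reductase of xylulose, had 24.4 and 25.4 RPKM, against 5.90 to 7.53 RPKM before. Pgam2, the muscle phosphoglycerate mutase, was at 3.69 and 3.43 RPKM at 48 h. Aldoc was the only gene of the set on a list of 20 hypoxia targets, of which 14 were higher and 3 lower at 48 h than at 24 h among 18 tested, beside 44.2% and 34.8% of autosomal genes, with a median log2 change of 0.66. The 3 lower ones were Kdm3a, a histone demethylase, Slc2a1, a glucose carrier, and Pfkfb3, a driver of glycolysis, with log2 changes of -0.34 to -0.31. Vegfa, a growth factor of blood vessels, and Bnip3, a mitophagy receptor, had the largest changes after Aldoc, with log2 changes of 1.58 and 1.496. The hypoxia list was 1 of 29 lists, of which 3 held a gene of the set. Lists without such a gene went both ways. Of 21 genes of cholesterol and lipid synthesis tested, 15 were higher and 2 lower, and of 14 naive pluripotency genes 1 was higher and 11 lower.

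Of the 5 genes for lysosome and autophagy, Neu1, the lysosomal sialidase, had 10.2 and 9.86 RPKM at 48 h, against 2.20 to 3.49 RPKM before. Sort1, a sorting receptor between Golgi and endosome, had 7.29 and 7.47 RPKM, against 0.984 to 1.65 RPKM before. Creg1, Cln6 and Wipi1, an autophagosome protein, were at 5.15 to 24.8 RPKM at 48 h. The 4 genes known to restrain growth were led by Pdcd4, which blocks the helicase of translation initiation. It was at 10.47 and 10.42 RPKM at 0 h, 13.0 and 14.1 RPKM at 8 h, 12.0 and 12.4 RPKM at 16 h, 8.91 and 9.24 RPKM at 24 h and 38.5 and 36.8 RPKM at 48 h. Its 24 h libraries were the lowest of the course. Hbp1, a repressor of the cell cycle, had 24.4 and 24.8 RPKM at 48 h, against 7.72 to 9.66 RPKM before. Ccng2, an unusual cyclin linked to cell-cycle arrest, and Pik3ip1, an inhibitor of PI3 kinase, were at 3.67 to 5.09 RPKM at 48 h.

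The 9 genes grouped under neurons or other excitable cells include App, the amyloid precursor protein. It was at 4.62 and 4.47 RPKM at 0 h, 4.18 and 4.25 RPKM at 8 h, 4.01 and 3.98 RPKM at 16 h, 4.26 and 4.02 RPKM at 24 h and 24.4 and 22.2 RPKM at 48 h. The 8 earlier libraries were nearly level. Kif1a, a motor of synaptic vesicle precursors, had 7.04 and 6.98 RPKM at 48 h, against 0.274 to 0.776 RPKM before, an 8.46-fold difference from 24 h. Fxyd6, a regulator of the sodium pump, had 42.5 and 41.3 RPKM, against 7.69 to 17.2 RPKM before. Palm, Trpm4, Dpysl5, Tubb4a, Atp2a3 and Hrc were at 2.61 to 14.0 RPKM at 48 h. Sox1 and Pax6, which define neuroectoderm, averaged 0.254 and 0.105 RPKM in the same libraries.

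Regulators of transcription and chromatin number 5. Sox15, a Sox factor made in embryonic stem cells, had 34.3 and 34.6 RPKM at 48 h, against 5.11 to 8.87 RPKM before. Nfatc4, a factor activated by calcium through calcineurin, had 10.48 and 9.93 RPKM, against 1.88 to 3.88 RPKM before. Pphln1, a subunit of the HUSH silencing complex, had 33.3 and 35.1 RPKM, against 7.59 to 13.0 RPKM before. Arid3a, a DNA-binding protein, and Hdac11, a histone deacetylase family member, were at 3.00 to 5.81 RPKM at 48 h. In the germ line group Cpeb1, which controls the translation of stored messages in oocytes, Catsperg1 of the sperm calcium channel and Dpep3 were at 2.86 to 5.30 RPKM at 48 h.

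The other 56 genes fit none of these groups, with 48 h means of 2.68 to 36.7 RPKM and ratios to 24 h of 2.51 to 10.95. Klhl24, an adaptor of a ubiquitin ligase, had 35.0 and 38.5 RPKM at 48 h, against 11.1 to 13.7 RPKM before. Got1l1 had 34.0 and 33.7 RPKM, against 4.75 to 7.35 RPKM before. Inppl1, a phosphatase of inositol lipids, Miip, an inhibitor of cell migration, and St3gal3, a sialyltransferase, were at 25.4 to 33.5 RPKM at 48 h and at 3.18 to 15.1 RPKM before. Ctrb1, a pancreatic chymotrypsinogen, had 7.17 and 7.88 RPKM at 48 h, against 0 to 0.249 RPKM before. Neil2, a DNA glycosylase, had 6.57 and 6.37 RPKM, against 0.129 to 0.693 RPKM before. Mapk13, a p38 kinase, had 16.6 and 16.4 RPKM, against 1.245 to 2.85 RPKM before. Patl2, a repressor of translation in oocytes, and Hspb2, a small heat shock protein of muscle, were at 3.99 to 6.03 RPKM at 48 h. In GENCODE M21, 107 of the 114 are protein coding. Mir453, Gm24610 and Gm25897 are small RNA genes inside Mirg, Mfsd13a and Lima1 on the same strand, so their values may count reads of the host, and polyadenylated RNA does not measure a mature microRNA. In all, 17 genes overlap another gene on the same strand and 40 one on the opposite strand, and no source used here says whether counting used the strand.

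**Figure D2:**
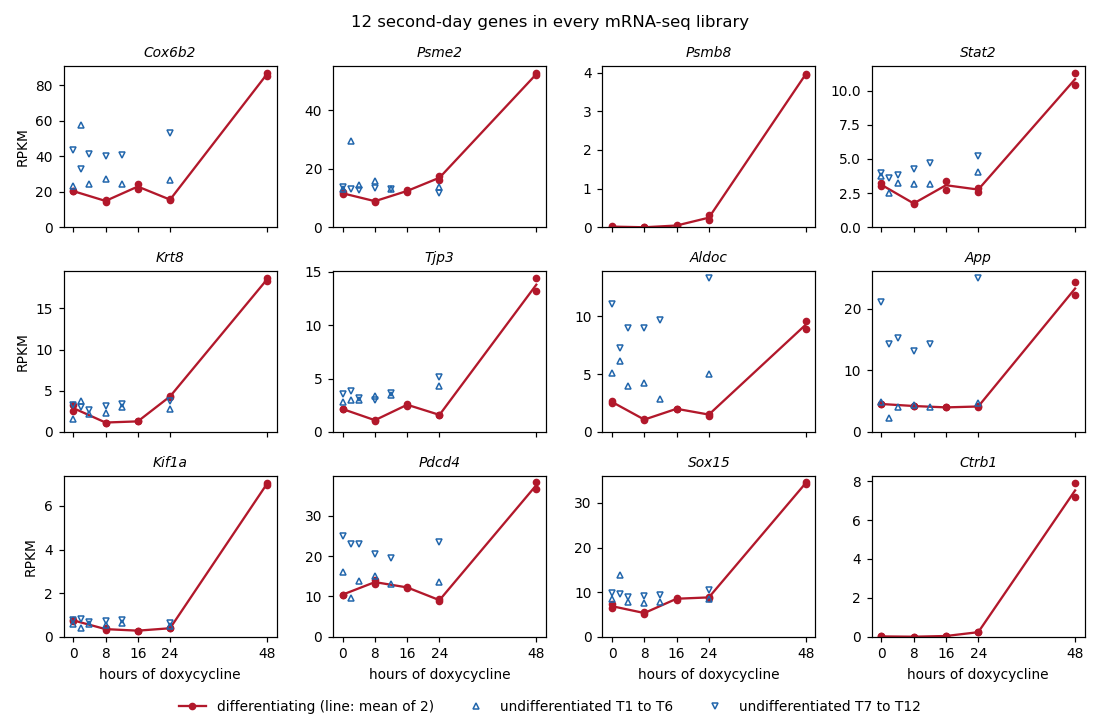
RPKM of 12 genes against hours of doxycycline. Red points are the 2 differentiating libraries at each time with a line through their mean, and blue triangles are the undifferentiated libraries titled T1 to T6 (pointing up) and T7 to T12 (pointing down). The red points stay low to 24 h and are high at 48 h, the blue ones stay below the 48 h points in the 10 genes shown that the undifferentiated table lists except App and Aldoc, and Psmb8 and Ctrb1 have no blue points.

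The promoters of these genes were read from RefSeq on GRCm38.p6, as 250 bases before and 50 after the annotated start. A window was found for 84 of the 114 genes, 101 windows in all. Their ratio of observed to expected CpG had a median of 0.577, against 0.732 over the 13065 windows of autosomal genes in the table, and 48.5% of the windows reached 0.6, against 65.6%. The GC content was alike, with medians of 60% and 60.7%. The 5 examples below have ratios from 0.0551 to 0.871 in the 250 bases before the start, which are shown 5′ to 3′ on the gene's strand with every CG in capitals. They overlap no annotated exon.
Acadl, chr1:66863310-66863559, minus strand: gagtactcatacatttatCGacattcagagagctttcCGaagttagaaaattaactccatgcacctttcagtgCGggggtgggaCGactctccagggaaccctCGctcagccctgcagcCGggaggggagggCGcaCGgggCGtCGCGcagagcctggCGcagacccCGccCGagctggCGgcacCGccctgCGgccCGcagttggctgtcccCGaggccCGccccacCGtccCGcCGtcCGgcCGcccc
Stat2, chr10:128270248-128270497, plus strand: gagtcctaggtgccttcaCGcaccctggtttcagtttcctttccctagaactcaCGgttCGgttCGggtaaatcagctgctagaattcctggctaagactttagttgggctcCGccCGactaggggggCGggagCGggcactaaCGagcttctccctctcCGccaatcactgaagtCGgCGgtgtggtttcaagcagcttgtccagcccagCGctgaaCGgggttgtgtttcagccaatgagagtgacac
Sox15, chr11:69654787-69655036, plus strand: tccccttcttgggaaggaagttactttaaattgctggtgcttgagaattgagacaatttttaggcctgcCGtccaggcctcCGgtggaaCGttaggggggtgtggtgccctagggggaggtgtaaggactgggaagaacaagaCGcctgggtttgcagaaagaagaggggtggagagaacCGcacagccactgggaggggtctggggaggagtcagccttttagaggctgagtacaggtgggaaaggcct
Tjp3, chr10:81291582-81291831, minus strand: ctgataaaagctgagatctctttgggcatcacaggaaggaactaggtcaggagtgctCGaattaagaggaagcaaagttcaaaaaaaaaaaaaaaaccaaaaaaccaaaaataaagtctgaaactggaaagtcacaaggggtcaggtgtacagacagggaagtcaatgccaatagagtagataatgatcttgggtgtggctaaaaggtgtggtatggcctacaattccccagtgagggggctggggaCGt
Ctrb1, chr8:111691011-111691260, minus strand: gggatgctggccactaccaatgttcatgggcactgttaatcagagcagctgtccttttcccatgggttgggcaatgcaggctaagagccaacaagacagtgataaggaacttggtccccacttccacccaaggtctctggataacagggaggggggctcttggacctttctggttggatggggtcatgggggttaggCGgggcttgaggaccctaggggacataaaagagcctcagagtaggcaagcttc

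These stretches hold 25 CG pairs in Acadl, 14 in Stat2, 5 in Sox15, 2 in Tjp3 and 1 in Ctrb1. At 0 h the RNA level was 11.01 and 10.97 RPKM for Acadl, 2.99 and 3.22 RPKM for Stat2, 6.37 and 7.32 RPKM for Sox15, 2.11 and 2.19 RPKM for Tjp3 and 0.0175 and 0.0138 RPKM for Ctrb1, which is not the order of their CG counts. The whole windows were searched on both strands for 11 short motifs, here with the share of these windows first and that of autosomal windows after it. GGGCGG, the GC box, was in 68.3% against 61.1%, CCAAT in 40.6% against 37.0%, CAGCTG in 19.8% against 15.9%, GGAATG in 17.8% against 12.5%, TATAAA in 9.90% against 7.10% and CACGTG in 7.92% against 9.67%. AGATAA was in 5.94% against 6.28%, ACAATG in 3.96% against 7.82%, TGANTCA in 1.98% against 5.14% and CTTTGAT in 1.98% against 2.48%. ATGCAAA was in 0 of 101 windows against 3.52%. None of these motifs contains another. The core of the interferon-stimulated response element and TGTTTAC, a forkhead motif, were added after the data were seen. TGTTTAC lay in 1.98% against 2.52%. The interferon element lay in 3.96% of the windows against 2.79%, in Kif1a, Dtd1, Psme1 and Stat2. In Stat2 it is the tttcagtttc that starts 222 bases before the start in the stretch above.

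Some of the genes are neighbours. Of 113 genes with a position in the authors' mm10 table, 21 (18.6%) had the start of another of the set within 200000 bases, against 6.40% of the other autosomal genes. Psme1 (chromosome 14, 55578123 to 55581529) and Psme2 (55587441 to 55591113) lie close together and are transcribed towards each other. Stat2 (chromosome 10, 128270576 to 128292849) and Il23a (128296140 to 128298084) are arranged in the same way. Trpm4 (chromosome 7, 45303155 to 45333780) and Hrc (45335269 to 45338968) are transcribed away from each other. Further neighbours are H2-Q2, H2-Q6 and H2-Q7 on chromosome 17. Aldh3b1, Unc93b1 and Acy3 lie together near the start of chromosome 19. That chromosome holds 9 of the genes, 1.83% of its 492 genes and the highest share of any autosome. Chromosomes 14 and 17 follow with 1.46% and 1.37%.

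The undifferentiated course, which had no part in choosing the genes, shows whether they changed within a day of doxycycline without differentiation. In differentiating cells on doxycycline, the rule already kept their means to 24 h under its ceiling. A lack of change to 24 h here therefore does not bear on the 48 h level. The undifferentiated course lists 105 of the 114, of which 97 reached a mean of 0.5 RPKM and were tested. At 24 h against 0 h of doxycycline, 0 of 97 were called by limma in either direction, with 2 at an unadjusted p under 0.05, Atp2a3 and Tjp3, and the background was likewise 0% of 11247 autosomal genes, with 50 at an unadjusted p under 0.05. The median log2 change was 0.07, against -0.01 over autosomal genes. Nor were any of the 97 called at 2, 4, 8 or 12 h, where 0% of autosomal genes were called as well and 1, 0, 0 and 0 of the 97 had an unadjusted p under 0.05. The libraries titled T1 to T6 and T7 to T12 each run once through the 6 time points. The fit above leaves the difference between these runs in the spread, which weakens its test. With a term for the runs as a replicate block the count at 24 h stayed at 0. By limma with the block, 4 of the 97 and 268 of the autosomal genes had an unadjusted p under 0.05. The nearest was Atp2a3, a calcium pump of the endoplasmic reticulum. It had 1.62 and 1.55 RPKM at 24 h, against 0.418 and 0.434 RPKM at 0 h, and its groups did not overlap (log2 change 1.17 ± 0.11 SE, limma adjusted p = 0.0678 with the block). The median log2 change over the set turned with single libraries. Leaving out replicate 2 at 24 h gave -0.18 and leaving out replicate 1 at 0 h gave -0.11, while 0.21 came from omitting replicate 2 at 0 h and 0.26 from omitting replicate 1 at 24 h.

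Set beside the undifferentiated libraries, the 48 h level was above them in most genes. The tables were normalized separately, so this is a comparison of levels without a test. In 98 of 105 genes (93.3%) the lower 48 h library exceeded all 12 undifferentiated libraries, against 30.2% of the other autosomal genes. The genes were chosen for a high 48 h level, so the gap between these shares is partly the choice. The 7 exceptions were Cyba, App, Aldoc, Adssl1, Fxyd6, Macrod1 and Fam114a1. Cyba was at 26.4 RPKM in its lower 48 h library and at 51.9 RPKM in the highest undifferentiated one. The differentiating 0 h mean was below the undifferentiated one in 90 of 105 genes (85.7%), against 45.4% of the other autosomal genes, and the rule favours genes low at 0 h in the differentiating course. The medians of these genes were 1.22 RPKM in differentiating and 1.96 RPKM in undifferentiated cells at 0 h. The title prefixes separate the courses too, so a batch and the state of the cells cannot be told apart.

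**Figure D3:**
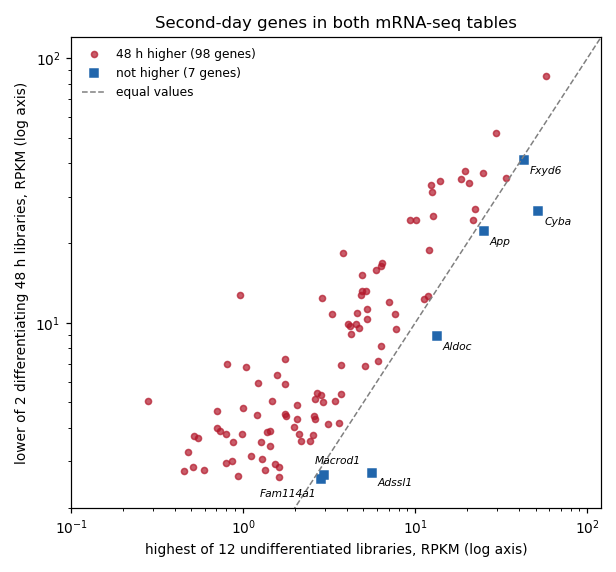
For the 105 genes in both mRNA-seq tables, the lower of the 2 differentiating 48 h libraries is plotted against the highest of the 12 undifferentiated libraries, both in RPKM on log axes, with a dashed line of equality. The 98 red points lie above the line and the 7 blue squares, named, on or below it.

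The undifferentiated runs differed in 49 of the 97 genes tested. The median level of the 105 genes listed was 1.97 to 2.68 RPKM in the libraries titled T7 to T12, against 1.35 to 1.57 RPKM in those titled T1 to T6, and the runs did not overlap. By limma with time as a covariate, a comparison added after the data were seen, 46 of 97 genes (47.4%) were higher and 3 (3.09%) lower in T7 to T12, against 18.5% of autosomal genes higher and 18.3% lower. The median log2 difference was 0.35, against 0.06 over autosomal genes. The fit sets a single run against another, with the 6 libraries of each as replicates. Its p-values therefore measure the spread within the runs and not that between repeated runs. In 47 of 97 genes (48.5%) the T7 to T12 library was the higher one at all 6 time points, against 29.4% of the other autosomal genes. Without the library that stood apart, 2 h replicate 1, and so without that time point in the paired comparison, 63 genes were higher and 6 lower, against 34% of autosomal genes higher and 31.5% lower.

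App had 13.1 RPKM in the lowest, 14.8 RPKM in the median and 24.997 RPKM in the highest T7 to T12 library, against 2.29, 4.26 and 4.92 RPKM in T1 to T6 (log2 difference 1.94 ± 0.14 SE, limma adjusted p = 0.000484). Its runs did not overlap, and the highest, at 24 h, exceeded both differentiating 48 h libraries, of 24.4 and 22.2 RPKM. Serinc5, a restriction factor of retroviruses, had 5.19, 5.93 and 6.44 RPKM in T7 to T12, against 0.676, 2.06 and 2.74 RPKM in T1 to T6. Cyba had 26.9, 31.2 and 51.9 RPKM in T7 to T12, against 9.21, 11.1 and 30.6 RPKM in T1 to T6. The highest T1 to T6 value was the 2 h library that stood apart, and only there did the Cyba runs overlap. Ccng2 had 2.19, 2.57 and 3.41 RPKM in T7 to T12, against 0.394, 0.832 and 1.02 RPKM in T1 to T6. Adssl1, Got1l1 and Aldoc followed with log2 differences of 1.19, 1.18 and 1.05. The 3 lower genes were Aldh1b1, with a log2 difference of -0.86, Parp9 with -0.42 and Fignl2 with -0.35.

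The 4 core pluripotency markers summed to 792 to 827 RPKM in T7 to T12, against 904 to 1375 RPKM in T1 to T6, with the 2 h library that stood apart the highest, and the runs did not overlap. Naive and formative markers overlapped. The 8 naive markers summed to 1200 to 1242 RPKM in T7 to T12, against 1080 to 1318 RPKM in T1 to T6, and the 4 formative markers to 43.8 to 50.2 RPKM, against 38.4 to 60.2 RPKM. Sums of some other markers also moved with the runs. The 2 neuroectoderm markers listed summed to 10.7 to 13.2 RPKM in T7 to T12, against 5.76 to 7.19 RPKM in T1 to T6, and the 3 fibroblast markers to 6.58 to 7.90 RPKM, against 10.6 to 14.3 RPKM. The 4 streak markers summed to 18.3 to 23.7 RPKM in T7 to T12, against 13.2 to 19.6 RPKM, and here the runs overlapped. They also overlapped for the endoderm and trophectoderm markers. The part of any of these markers in the difference was not tested. In bulk libraries a change in the share of cells and a change in RNA per cell cannot be told apart.

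**Figure D4:**
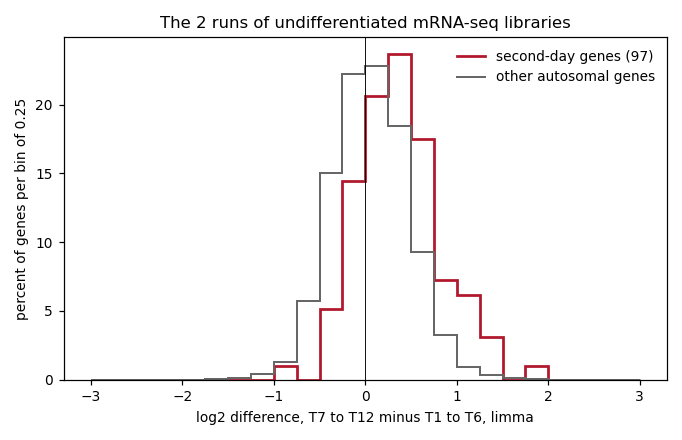
Distribution of the limma log2 difference between the undifferentiated libraries titled T7 to T12 and T1 to T6, as the percent of genes in bins of 0.25, for the 97 genes tested (red) and the other autosomal genes (grey). The red outline lies to the right of the grey one, with medians of 0.35 and 0.06.

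Nascent transcription tells how the genes stood before any differentiation. PRO-seq of undifferentiated cells lists 113 of them, with a median at 0 h of 4.32 RPKM, against 7.68 RPKM over autosomal genes. At least 1 RPKM was reached by 92 genes (81.4%), against 85.9% of autosomal genes, and at least 10 RPKM by 30 (26.5%), against 40.8%. Of the 56 genes under 1 RPKM of RNA in differentiating cells at 0 h, 38 (67.9%) had at least 1 RPKM of nascent RNA, against 58.3% of the 4335 autosomal genes that low. Pnpla2 had the highest nascent level, with 391 and 155 RPKM at 0 h. Cyba was at 138 and 109 RPKM and Cox6b2 at 61.8 and 49.3 RPKM. Psmb8 was at 0.674 and 0.322 RPKM, Krt8 at 0.272 and 0.732 RPKM and Ctrb1 at 0 and 0.497 RPKM. The set runs from genes with little engaged polymerase at the start to genes with much.

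At 24 h against 0 h of doxycycline, 0 of 94 genes tested were called in PRO-seq by edgeR's quasi-likelihood test on allele-assigned counts, with 11 at an unadjusted p under 0.05, and the background was 0% of 16409 autosomal genes, with 1167 at an unadjusted p under 0.05. DESeq2 also called 0, with 0 of the genes at an unadjusted p under 0.05. The median log2 change was -0.04. As with the RNA of these cells, values to 24 h do not bear on the 48 h level. Stat2 had 12.5 and 11.2 RPKM at 24 h, against 7.49 and 10.8 RPKM at 0 h. Krt8 rested on 20 and 10 allele-assigned reads at 24 h, against 4 and 4 reads at 0 h, while its RPKM over all reads was 0.776 and 0.438 at 24 h, against 0.272 and 0.732 at 0 h. Without 0 h replicate B the test called 3 genes higher and 6 lower, and 391 autosomal genes higher and 802 lower.

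Since the genes are autosomal, the B6 share of their RNA asks whether the late level came from both alleles. At 48 h, 113 genes had a share in both libraries, with a median of 50.8%. A share of 40 to 60% was found in 84 of them (74.3%), against 77.8% of 8839 autosomal genes of at least 2.5 RPKM. Shares under 25% were found in 5 genes, Ifi27l2a, B230206L02Rik, Gm24610, Fbp1 and Cd7, and over 75% in 3, Neil2, Patl2 and Aldh1b1, against 1.72% and 2.43% of the autosomal genes. Ifi27l2a was at 16.9% and 15.9% B6 and Neil2 at 91.1% and 91.1% B6. The number of reads behind these fractions is unknown, so no interval is given.

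The share at 48 h was compared with that at 24 h in the 64 genes with a mean of at least 1 RPKM at both times and a share in all 4 libraries. By limma on the log2 odds, 6 (9.38%) were higher and 3 (4.69%) lower, against 4.7% of autosomal genes higher and 4.39% lower. An unadjusted limma p under 0.05 was found for 17 of the 64 and for 2499 of 9840 autosomal genes. App moved towards the middle, with 46.3% and 48.0% B6 at 48 h, against 36.8% and 35.8% at 24 h (log2 odds change 0.63 ± 0.14 SE, adjusted p = 0.0405 by limma). Acadl had 48.1% and 49.5% at 48 h, against 39.9% and 42.0% at 24 h (log2 odds change 0.45 ± 0.07 SE, adjusted p = 0.0127 by limma). Fxyd6 had 41.5% and 42.6%, against 34.8% and 37.4% at 24 h, and Serinc5 44.9% and 46.4%, against 39.0% and 35.2%. Cpt2 had 60.02% and 60.1%, against 51.0% and 44.6%, and Palm 49.2% and 50.3%, against 44.1% and 44.6%. Cyba was lower, with 54.7% and 51.3% at 48 h, against 63.9% and 59.2% at 24 h, as was Neu1, with 49.8% and 49.7%, against 58.9% and 56.6%. Gm24610 had 20.8% and 20.7%, against 42.9% and 40.0%. This small RNA gene inside Mfsd13a had an estimated 95 and 88 reads in all at 48 h and 33 and 19 at 24 h. How many of them carried an allele is unknown. In all 9 the libraries of the times did not overlap, which a call from the same libraries nearly ensures. The share of autosomal genes without overlap is not given here. The spread in this test came from the whole course. With the 48 h and 24 h libraries alone limma called 0 of the 64 and 0 of 9840 autosomal genes. An unadjusted p under 0.05 was then found for 24 of the 64 and 2116 of the 9840. The count was 0 when replicate 2 at 48 h was left out and 1 when replicate 1 was. Leaving out replicate 1 at 24 h gave 5, replicate 2 at 24 h gave 2, and either 16 h library gave 5.

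**Figure D5:**
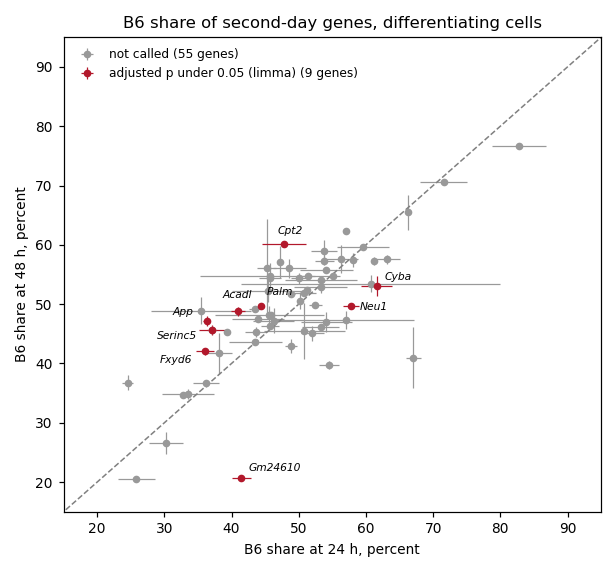
B6 share of RNA at 48 h against that at 24 h for the 64 genes tested, as the mean of 2 libraries with bars to the lower and higher library. The 9 genes with an adjusted p under 0.05 by limma are red and named, the other 55 are grey, and the dashed line marks equal shares.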

How the data were processed

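Values were taken from tables the authors deposited. The mRNA-seq tables give RPKM and the fraction of reads carrying the B6 allele, and the PRO-seq table gives RPKM and read counts per allele, per the file headers. The submitters' processing notes list HTSeq 0.6.1, TopHat2 2.1.0, cutadapt 1.8.2, SAMtools, Bowtie 1.0.0 and the mm10 build, without their roles. Starts were raised by 1 base to count from 1.

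The genes and the lists were chosen with earlier results of these data known. RPKM was tested with limma 3.58.1 (trend, robust) as log2(RPKM + 0.5), so folds of low genes are understated. A gene was tested where its mean over all libraries of the course reached 0.5 RPKM. The B6 fraction was tested as log2 odds with a pseudocount of 0.01. PRO-seq counts of both alleles were summed and tested with edgeR 4.0.16 (quasi-likelihood, TMM), with DESeq2 1.42.0 as an alternative. Each fit held all libraries of its course. P-values were two-sided and adjusted over all genes by Benjamini-Hochberg, with a threshold of 0.05. The limma fit of differentiating RNA at 48 h against 24 h and the edgeR fit of PRO-seq were tested on simulated data. The other fits were not. Reads carry no molecular identifiers, and RNA depth is only an estimate from RPKM steps.

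The titles T1 to T6 and T7 to T12 number the undifferentiated mRNA-seq libraries once through the time points. The difference between the runs correlated between time points over 11610 genes with r from 0.327 to 0.902 in all 15 pairs, so the numbers pair these libraries. The text names the 15 genes highest at 48 h, the 10 with the largest ratio among the rest, those on a list, those called in the B6 comparison, the 2 on each side of each threshold and the 3 largest list changes. Genes of the role groups, those of the run comparison and the other list genes were picked after their values were seen. Some genes of the role groups and lists are not reported here.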

Additional observations from a re-analysis of the deposited data

How the results depend on the processing

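The set depends on its limits. It held 114 genes as described, 239 at a 2-fold threshold, 68 at a 3-fold threshold, 49 with a stricter first-day ceiling, 186 with a ceiling of 2 times the 0 h level, and 71 with a 48 h minimum of 5. A pseudocount of 0.1 gave 89 genes, of which 70 were among the 114, and a pseudocount of 1 gave 121, of which 81 were. TMM scaling gave 101 genes with 99 shared. Leaving out each differentiating library gave 109 to 126 genes, with at least 106 shared. The 48 h and 24 h values chose the genes, so the limma calls between them (114, 53 of 53 tested at a mean of at least 2 RPKM, 111 to 114 without single libraries) say nothing of stability. None of the alternatives run called any of the genes at 24 h against 0 h in undifferentiated RNA, and the count was 0 to 0 without single libraries. In PRO-seq it was 0 to 9 without single libraries. The replicate block of PRO-seq letters called 0 of 89, but the A and B libraries share only a letter, with a correlation of 0.120 over 13392 genes between 2 pairs. The replicate block of the title runs in undifferentiated RNA called 0 of 97 and changed no other call. For the B6 share, 3 genes were called of the 20 with a mean of at least 5 RPKM and 0 with the compared groups alone, and 0 to 10 without single libraries. The cause was not tested. Between the runs of undifferentiated libraries, quantile normalization called 40 genes higher and 6 lower, beside 2076 higher and 2645 lower of 11247 autosomal genes. Without single libraries 39 to 69 were called, beside 1072 to 3825 autosomal genes higher and 1016 to 3573 lower.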
